A study of Homo sapiens with 48 samples.

Results

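GS-5759 is a single molecule made to act both as an agonist of the β2-adrenoceptor and as an inhibitor of phosphodiesterase 4, and the question asked of the values below was what remained of its transcriptional response after 18 h. The comparison set the 4 arrays of cells treated with GS-5759 for 18 h against the 4 arrays of cells given vehicle for 18 h, matched by the replicate numbers in the sample titles. These are 8 of the 48 arrays of the series. All values came from BEAS-2B, a virus-immortalised line of human bronchial epithelium, so that every group rests on 1 cell line. The series held 12 groups of 4 arrays: GS-5759 (10 nM), indacaterol combined with GSK 256066 (Ind/GSK, a β2-agonist and a phosphodiesterase 4 inhibitor, each at 10 nM) and vehicle, each for 1, 2, 6 or 18 h. Cells of all groups, vehicle included, had grown in supplemented keratinocyte serum-free medium and were then kept in that medium alone before treatment. The other arrays used here were those of GS-5759 and vehicle at 1, 2 and 6 h, and of Ind/GSK at 18 h.

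The β2-adrenoceptor couples through Gs to adenylyl cyclase, which makes cyclic AMP, and phosphodiesterase 4 breaks cyclic AMP down. Cyclic AMP activates protein kinase A, which phosphorylates the transcription factor CREB bound at cyclic AMP response elements, and the first genes induced include nuclear receptors, kinases and phosphodiesterases that feed back on the pathway. In airway disease β2-agonists are known as bronchodilators that act on smooth muscle and phosphodiesterase 4 inhibitors as anti-inflammatory drugs, and both also act on gene expression in the epithelium.

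Values are PLIER signals, a linear probe set intensity, and differences are GS-5759 minus vehicle on the log2(signal + 16) scale, which understates the change of dim genes. Differences were fitted with limma over all 48 arrays with the replicate number as a block, and a probe set was called at a Benjamini-Hochberg adjusted p under 0.05 over 41091 probe sets with exactly 1 gene symbol. A gene stands by its brightest such probe set, which gave 19775 genes. The 75th percentile of the signal was 575.1 to 612.6 on the GS-5759 arrays of 18 h and 581 to 602.2 on the vehicle arrays. The labels do not say that replicates came from separate cultures, so p-values measure only the spread between these samples.

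The arrays of replicate 3 stood apart in every group. KRT14, a keratin of basal epithelial cells, had signals of 186900 to 441000 on the 12 arrays numbered 3 and of 13.28 to 31.94 on the others. KRT5, its partner keratin, had 29510 to 36310 on the arrays numbered 3 and 108.3 to 277.4 elsewhere. Over the whole marker lists, 3 of 14 basal and squamous markers and 1 of 6 general epithelial markers were at least 10-fold higher in replicate 3, and none of the 12 ciliated and club cell, 11 fibroblast, 10 leukocyte or 8 endothelial markers was. The summed signal of the basal and squamous list ran from 3763 to 419500 on the GS-5759 arrays of 18 h and from 4138 to 314700 on the vehicle arrays. The keratins KRT8 and KRT18, found in simple and cultured epithelia, were at 3112 to 6970 and at 5313 to 9218 over all 48 arrays, and VIM, a mesenchymal filament gene, was at 9900 to 11680. PTPRC, CDH5 and FOXJ1, which define leukocytes, endothelium and ciliated cells, stayed at or below 41.93, 20.79 and 30.67. Other members of those lists were brighter: 4 of 10 leukocyte, 1 of 8 endothelial and 4 of 12 ciliated and club cell markers had a mean above the 40th percentile of all probe sets (a signal of 100.8), among them CD4 at up to 557.7, PECAM1 at up to 628.9 and CAPS at up to 254.6. At 18 h the summed signals were 1470 to 1575 with GS-5759 and 1349 to 1611 with vehicle for the leukocyte list, 832.5 to 973.2 and 795.2 to 948.9 for the endothelial list, and 840.8 to 927.9 and 807.3 to 942.8 for the ciliated and club cell list. Replicate 3 holds 1 array of each group, and each called gene is therefore given with and without it. In RNA from whole cultures, fewer cells of a type and less RNA per cell cannot be told apart.

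At 18 h little of the response passed the test. Of 19775 genes, 10 rose (0.0506%) and 2 fell (0.0101%), against 721 that rose (3.65%) and 497 that fell (2.51%) at 6 h. At 1 h 138 genes rose (0.698%) and 33 fell (0.167%), and at 2 h 635 rose (3.21%) and 436 fell (2.2%). Counted by probe set at 18 h, 11 rose (0.0268%) and 3 fell (0.0073%), 5 of the risen ones by at least 2-fold, and 3146 of 41091 had an unadjusted p under 0.05. The difference from vehicle was called lower at 18 h than at 6 h for 141 genes (0.713%) and higher for 34 (0.172%). The 18 h count depends on the block: without it 1 probe set was called, and in a fit of only the 8 arrays of the comparison, none. Same-numbered GS-5759 and vehicle arrays deviated together at 18 h, with correlations of 0.72 to 0.91, which is why the block was kept. Other scalings changed the balance of directions, with 16 risen and 18 fallen probe sets after centring on the 75th percentile and 16 risen and 15 fallen after quantile normalization. Without replicate 3, 10 probe sets were called (7 risen and 3 fallen), and without replicate 1 or without replicate 2 there were 6 each.

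Among the genes called at 18 h, those that stood highest over vehicle were a secreted factor, an innate immune inhibitor, a membrane-remodelling gene and a glycosyltransferase, and their differences from vehicle were present at every earlier time too. FIBIN encodes a secreted factor first described in zebrafish fin development. Its signals were 872, 168.5, 4114 and 159.5 on the GS-5759 arrays of replicates 1 to 4, against 176, 1.02, 801 and 12.3 on the vehicle arrays. The groups overlapped because of the spread between replicate numbers, with replicate 3 highest in both, and FIBIN was higher with GS-5759 in each of the 4 same-numbered pairs. The fitted difference was 2.65 ± 0.20 (SE, n = 4 arrays a group; limma, adjusted p = 6.67e-11), a 6.30-fold higher value on that scale, and 2.76 without replicate 3 (adjusted p = 9.87e-08). At 1, 2 and 6 h it was 1.96, 1.76 and 1.77. A second, dimmer FIBIN probe set differed by 0.24 (adjusted p = 0.877).

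TNFAIP2, a gene induced by tumour necrosis factor in other cells and known for membrane nanotube formation, had 918, 358, 1735 and 323 on the GS-5759 arrays, against 408, 169, 743 and 113.5 on the vehicle arrays. Each pair differed by a similar amount, from 1.01 to 1.39, and the groups again overlapped across replicate numbers. TNFAIP2 rose by 1.19 ± 0.10 (limma, adjusted p = 1.22e-09), and by 1.18 without replicate 3 (adjusted p = 2.02e-06). Its differences at 1, 2 and 6 h were 1.04, 1.00 and 1.17. A second, dimmer TNFAIP2 probe set differed by 0.24 at 18 h (adjusted p = 0.595). FIBIN and TNFAIP2 were called in all 12 fits that left out 1 array of the comparison or 1 replicate number.

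SLPI encodes the secretory leukocyte protease inhibitor, which protects airway surfaces from neutrophil elastase. It had 976, 148, 6152 and 141 on the GS-5759 arrays, against 323.5, 46.6, 2014 and 65.9 on the vehicle arrays, with replicate 3 far above the others in both groups. It rose by 1.37 ± 0.22 (limma, adjusted p = 0.00175), with 1.34, 1.26 and 1.21 at 1, 2 and 6 h. B3GALT4, a galactosyltransferase of ganglioside synthesis, had 544, 143, 1292 and 166 on the GS-5759 arrays and 195, 25.2, 350.4 and 46.4 on the vehicle arrays. It was higher in all 4 pairs and rose by 1.68 ± 0.33 (limma, adjusted p = 0.0382), with 1.46, 1.54 and 1.62 at the earlier times. Without replicate 3 neither SLPI (1.29, adjusted p = 0.227) nor B3GALT4 (1.63, adjusted p = 0.411) passed. B3GALT4 was called in 2 of the 12 leave-out fits and SLPI in 10. A second B3GALT4 probe set, with a lower mean, differed by 0.04 (adjusted p = 0.974).

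**Figure D1:**
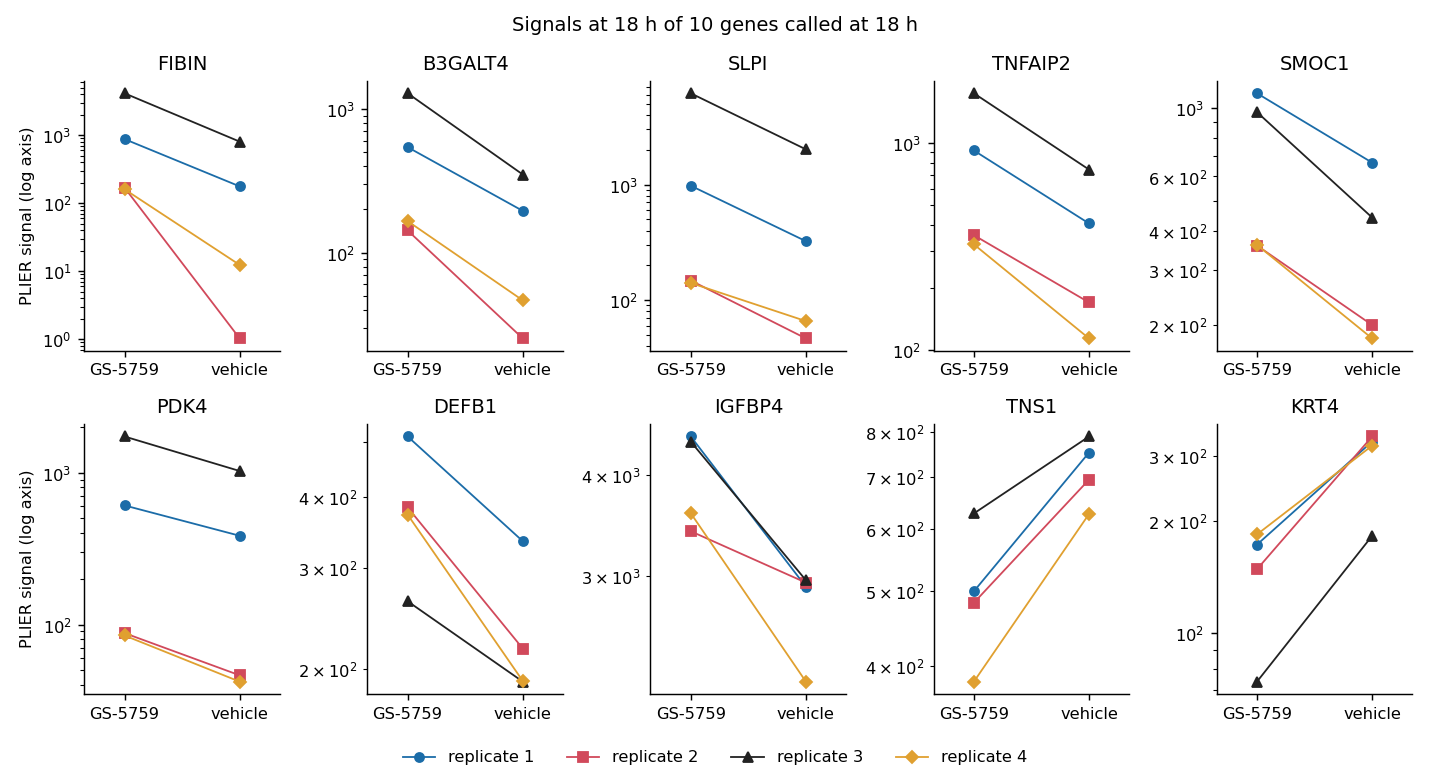
PLIER signals at 18 h (log axis) of 10 genes called at 18 h, GS-5759 on the left and vehicle on the right of each panel, 1 panel a gene. Lines join arrays with the same replicate number. The naming rule asked called genes for the same sign in all 4 pairs, so the 4 lines of a gene run the same way by that choice. The level of a gene often differs more between replicate numbers than between treatments.

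For these 4 genes the difference at 18 h was not shown to differ from that at 6 h. The change between both times was 0.89 for FIBIN (95% interval 0.31 to 1.47, adjusted p = 0.173), 0.02 for TNFAIP2 (-0.27 to 0.31, adjusted p = 0.992), 0.16 for SLPI (-0.46 to 0.78, adjusted p = 0.946) and 0.07 for B3GALT4 (-0.89 to 1.02, adjusted p = 0.991; limma). The intervals of SLPI and B3GALT4 are wide enough to hold a sizeable change in either direction.

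SMOC1 and PDK4 were still above vehicle at 18 h but less so than at 6 h. SMOC1 is a secreted calcium-binding matrix protein that antagonises bone morphogenetic protein signalling. Its signals were 1111, 360, 966 and 361 on the GS-5759 arrays, against 665, 199.6, 442.5 and 181 on the vehicle arrays. It rose by 0.89 ± 0.15 (limma, adjusted p = 0.00275), and by 0.82 without replicate 3 (adjusted p = 0.00456). Of the 12 leave-out fits, 9 called it. Its difference was -0.10 at 1 h, 0.81 at 2 h and 2.30 at 6 h, highest at 6 h among the times measured, and the change after 6 h was -1.41 (adjusted p = 6.33e-05). A second SMOC1 probe set, which is not the brightest and was named after its value was seen, rose by 1.06 ± 0.16 (limma, adjusted p = 0.00113). Without replicate 3 that probe set rose by 0.94 (adjusted p = 0.00456).

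PDK4 encodes a mitochondrial kinase that switches off pyruvate dehydrogenase and spares glucose. It had 609, 87.8, 1732 and 84.7 on the GS-5759 arrays, against 384, 46.3, 1026 and 42.0 on the vehicle arrays. The pairs agreed closely, at 0.64 to 0.79, although replicates 1 and 3 lay well above 2 and 4 in both groups. PDK4 rose by 0.73 ± 0.14 (limma, adjusted p = 0.0382), after 2.11, 3.15 and 2.35 at 1, 2 and 6 h, and the change from 6 h was -1.62 (adjusted p = 6.01e-06). It passed in 2 of the 12 leave-out fits and not without replicate 3 (0.72, adjusted p = 0.227). Its dimmer probe sets differed by 0.54 (adjusted p = 0.70) and 0.34 (adjusted p = 0.899).

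DEFB1 and IGFBP4 showed smaller rises. DEFB1, the constitutive epithelial β-defensin, had 510.5, 383, 263 and 372 on the GS-5759 arrays and 335, 217, 190 and 190 on the vehicle arrays, and rose by 0.68 ± 0.13 (limma, adjusted p = 0.0382). The GS-5759 array of replicate 3 lay below the vehicle array of replicate 1, so the groups overlapped. IGFBP4, a binding protein of insulin-like growth factors, had 4460, 3407, 4395 and 3586 on the GS-5759 arrays, against 2910, 2944, 2964 and 2222 on the vehicle arrays. Here all 4 GS-5759 arrays lay above all 4 vehicle arrays. IGFBP4 rose by 0.52 ± 0.09 (limma, adjusted p = 0.0138), with 0.05, 0.60 and 0.81 at 1, 2 and 6 h. DEFB1 was called in 3 and IGFBP4 in 5 of the 12 leave-out fits, and neither without replicate 3 (0.76 with adjusted p = 0.158, and 0.50 with adjusted p = 0.261).

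Both genes called as fallen were closer to vehicle at the earlier times. KRT4, a keratin of suprabasal squamous epithelium, had 173, 148, 73.8 and 184 on the GS-5759 arrays, against 328, 338, 182.5 and 320 on the vehicle arrays. Only the vehicle array of replicate 3 reached down into the range of the GS-5759 arrays. KRT4 fell by 0.97 on the log2 scale (-0.97 ± 0.14; limma, adjusted p = 0.000481) and fell by 0.91 without replicate 3 (adjusted p = 2.11e-05). It lost its call without replicate 1 (adjusted p = 0.0885) and in the fit of only the 12 arrays of 18 h (adjusted p = 0.147), in which no gene was called as fallen by its brightest probe set. Its differences at 1, 2 and 6 h were -0.04, 0.14 and -0.23, and the change from 6 to 18 h was -0.74 with an adjusted p of 0.0694. A second, dimmer KRT4 probe set differed by 0.01 (adjusted p = 0.994).

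TNS1, tensin 1, links integrins to actin at fibrillar adhesions. It had 499, 482, 629 and 382 on the GS-5759 arrays, against 753, 695, 790 and 628 on the vehicle arrays, so that only the GS-5759 array of replicate 3 reached the vehicle range. TNS1 fell by 0.53 (-0.53 ± 0.10; limma, adjusted p = 0.0138) and by 0.59 without replicate 3 (adjusted p = 0.0159), and 5 of the 12 leave-out fits called it. Its earlier differences were -0.03, 0.04 and -0.17, and the change from 6 h was -0.36 (adjusted p = 0.315). The other 4 TNS1 probe sets differed by -0.42 to -0.18 at 18 h, none of them called. A late fall of KRT4 and TNS1 that was absent at 6 h was thus not shown by the test of the change. From 2 to 18 h the change was called for KRT4 (-1.10, adjusted p = 0.000554) and TNS1 (-0.56, adjusted p = 0.0154; limma). From 1 to 18 h it was called for KRT4 (-0.93, adjusted p = 0.0198) and not for TNS1 (-0.50, adjusted p = 0.1865). Both genes were picked by their 18 h values, which enter these changes.

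**Figure D2:**
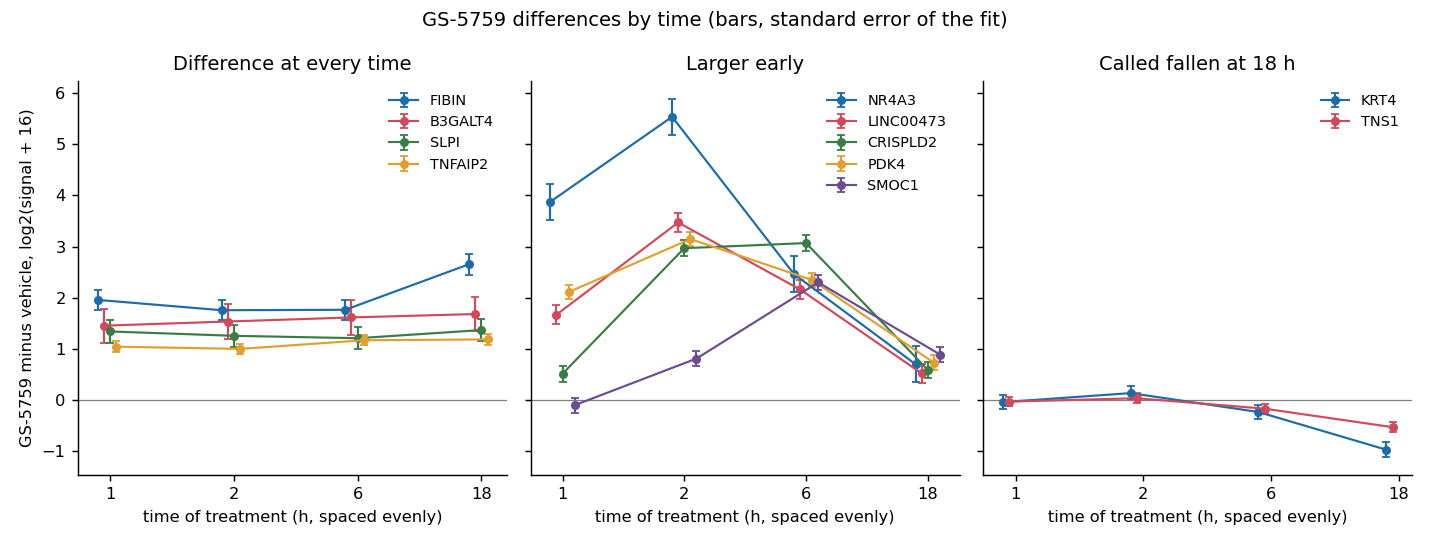
GS-5759 minus vehicle on the log2(signal + 16) scale (y axis) at 1, 2, 6 and 18 h (x axis, spaced evenly), with bars for the standard error of the fit. FIBIN, B3GALT4, SLPI and TNFAIP2 lie between 1.00 and 2.65 at every time, NR4A3, LINC00473, CRISPLD2, PDK4 and SMOC1 come down to 0.52 to 0.89 at 18 h, and KRT4 and TNS1 are near 0 until 2 h and lowest at 18 h.

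Another 3 called probe sets lay below the signal of 100.8 used to name genes, and were named after their values were seen. LYZL1, a lysozyme-like gene, had 7.31 to 16.6 on the GS-5759 arrays and 1.32 to 7.26 on the vehicle arrays, a difference of 0.64 (limma, adjusted p = 0.0238). The antisense transcript DLG3-AS1 had 43.7 to 58.2 on the GS-5759 arrays and 16.1 to 42.8 on the vehicle arrays, a difference of 0.75 (adjusted p = 0.0382). KLHL35, a kelch-family gene, had 24.5 to 28.7 on the GS-5759 arrays and 48.2 to 53.7 on the vehicle arrays, and fell by 0.61 (adjusted p = 0.00015). That KLHL35 probe set is not the gene's brightest, and the brightest one was not called. The dimmer one was the 1 probe set also called without the block. It was called in all 12 leave-out fits, with -0.60 without replicate 3 (limma, adjusted p = 0.00996). LYZL1 and DLG3-AS1 were each called in 3 of the 12, and neither without replicate 3 (0.58 with adjusted p = 0.411, and 0.61 with adjusted p = 0.548). In each of these 3 the groups did not overlap. They were picked by their 18 h values, and how many of all probe sets lack overlap was not counted. For LYZL1 the lowest GS-5759 signal was 7.31 and the highest vehicle signal 7.26, both below the added 16. Over 22 settings the LYZL1 difference ran from 0.21 to 2.07, and 9 of them called it.

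Below the threshold came genes named for their low unadjusted p. GDF15, a stress-induced cytokine of the TGF-β family, had 2365, 828, 797.5 and 570 on the GS-5759 arrays, against 1710, 604, 530 and 436 on the vehicle arrays, a difference of 0.47 ± 0.10 (limma, adjusted p = 0.0773). P4HTM, a transmembrane prolyl hydroxylase, had 1481 to 1681 on the GS-5759 arrays and 1324 to 1376 on the vehicle arrays without overlap, a difference of 0.20 (adjusted p = 0.0959). On the side of lower values stood the basement membrane gene NID2 (-0.34, adjusted p = 0.0697), the giant cadherin FAT3 (-0.61, 0.0746), ANKRD2 (-0.39, 0.0953), ITIH3 (-0.42, 0.126), TMEM158 (-0.39, 0.131), LOC101927253 (-0.35, 0.0959) and the calmodulin-dependent phosphodiesterase PDE1C (-0.49, 0.185). All of these had the same sign in all 4 pairs. BRWD1, a bromodomain protein, differed by -0.27 at 18 h (adjusted p = 0.0813) and by 0.36 at 6 h, and that change of -0.63 was called (adjusted p = 9.98e-06), although 7 other BRWD1 probe sets differed by only -0.09 to 0.12 at 18 h.

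Of the genes that GS-5759 had raised at least 2-fold at 1, 2 or 6 h, few were far from vehicle at 18 h. Those 127 genes were picked on arrays other than those of 18 h, and their medians at 1, 2 and 6 h, which the choice fixed, were 0.66, 1.21 and 0.71. At 18 h the median was 0.10, beside 0.01 for all genes. By replicate number it was 0.13, 0.08, 0.17 and 0.08, and 0.08 in the fit without replicate 3. At 18 h 98 of the 127 lay above 0 (77.2%, against 55.9% of all genes), and 43 were above vehicle in all 4 pairs (33.9%, against 12.7%). Of the 127, 11 were up by at least 1.5-fold, beside 57 of all 19775 genes. By at least 2-fold 4 were up, beside 6 of all genes. The test called 6 as risen, beside 10 of all genes (0.0506%). Among the 48 genes up at least 2-fold at 6 h the median at 18 h was 0.31, 43 were above 0, and 31 were above vehicle in all 4 pairs (64.6%). The 6 genes that had fallen at least 2-fold at 2 or 6 h had a median of -0.12 at 18 h, and none was called.

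**Figure D3:**
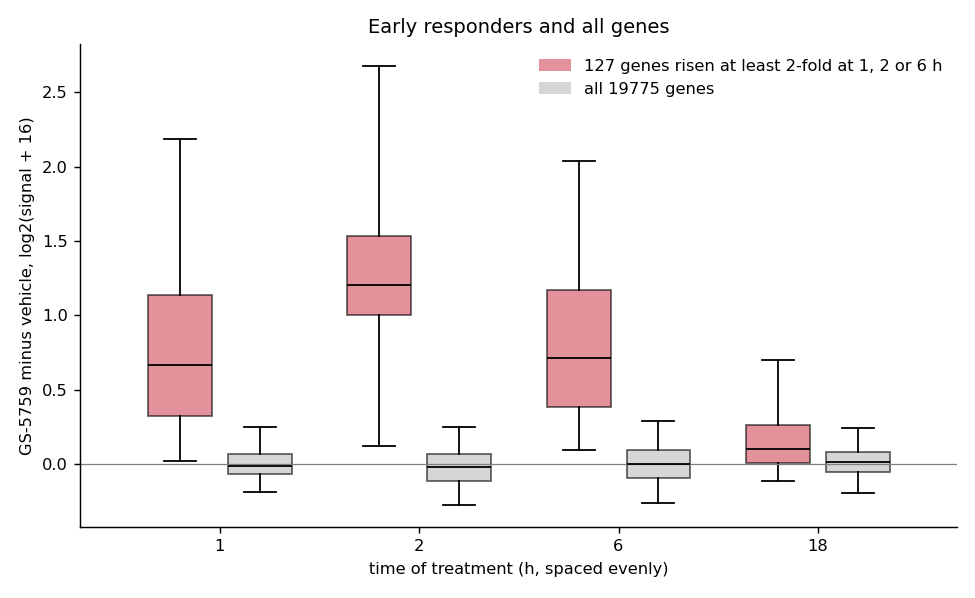
GS-5759 minus vehicle on the log2(signal + 16) scale (y axis) at 1, 2, 6 and 18 h for the 127 genes risen at least 2-fold at 1, 2 or 6 h (red, left) and all 19775 genes (grey, right). Boxes span the quartiles with the median as a line and whiskers run from the 5th to the 95th percentile; at 18 h the medians are 0.10 and 0.01.

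The cyclic AMP and CREB target genes rose early and held no call at 18 h. Of 18 measured members, 14 rose at 1 h (0.698% of all genes), 16 at 2 h (3.21%), 9 at 6 h (3.65%) and 0 at 18 h (0.0506%), when 4 had an unadjusted p under 0.05 in limma (all genes, 8.24%). The difference was called lower at 18 h than at 6 h for 2 of the 18 (all genes, 0.713%). Their median at 18 h was 0.14, the highest of 32 lists, and 8 of 18 were above vehicle in all 4 pairs (44.4%, against 12.7% of all genes). By replicate number the median was 0.16, 0.08, 0.28 and 0.08. Without replicate 3 it was 0.06 and no longer the highest, with 0.13 for the endothelial markers and 0.11 for the inflammatory cytokine list. The orphan nuclear receptor NR4A3 had 71.6, 25.7, 40.01 and 6.48 on the GS-5759 arrays, against 24.4, 19.5, 10.9 and 1.03 on the vehicle arrays. All pairs were higher with GS-5759, at signals below 100.8, and the difference of 0.70 ± 0.35 did not pass (limma, adjusted p = 0.658), after 3.88, 5.53 and 2.47 at 1, 2 and 6 h. A dimmer NR4A3 probe set with early differences of 3.37, 4.39 and 1.08 differed by -0.24 at 18 h (adjusted p = 0.928), the opposite sign. NR4A2 differed by 0.31 and NR4A1 by -0.06 at 18 h, against 4.24 and 2.03 at 2 h. The salt-inducible kinase SIK1, which restrains CREB coactivators, differed by 0.39, the G-protein regulator RGS2 by 0.27, the MAP kinase phosphatase DUSP1 by 0.05 and the pseudokinase TRIB1 by 0.02, none of them called.

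LINC00473, a long non-coding RNA induced through CREB, kept its groups apart at 18 h without passing the test. It had 170, 158, 138 and 139 on the GS-5759 arrays, against 123, 131, 67.7 and 90.0 on the vehicle arrays. The difference was 0.52 ± 0.18 (limma, adjusted p = 0.43), after 3.47 at 2 h, and it had come down by 1.64 since 6 h (-1.64, adjusted p = 0.000155).

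Some phosphodiesterases, which degrade cyclic AMP, had risen early, PDE4D and PDE4B by 2 h and PDE7B and PDE3A at 6 h, and none of these was called at 18 h. PDE4D had 510, 346, 966 and 395 on the GS-5759 arrays, against 402, 295, 482 and 340 on the vehicle arrays, a difference of 0.43 ± 0.18 (limma, adjusted p = 0.562) with the largest gap in replicate 3. At 6 h PDE4D had differed by 1.69, and the change of -1.26 was called (adjusted p = 0.00737). PDE7B had 164, 152, 217.5 and 120 on the GS-5759 arrays, against 109, 107, 97.6 and 103 on the vehicle arrays, without overlap. Its difference was 0.55 ± 0.20 (adjusted p = 0.486), and the change of -1.49 from 6 h was called (adjusted p = 0.00297). At 18 h PDE4B differed by 0.23 and PDE3A by 0.06. PDE4A differed by 0.09 at 18 h, beside -0.06, 0.09 and 0.11 at 1, 2 and 6 h, and PDE1C had fallen at 6 h (-0.54, adjusted p = 0.00443). In the list of 33 genes for cyclic AMP production, breakdown and receptor regulation, 0 were called at 18 h (5 with an unadjusted p under 0.05 in limma), against 5 risen and 2 fallen at 6 h. Of all genes, 8.24% had such a p at 18 h, and 3.65% rose and 2.51% fell at 6 h.

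Promoters are printed for PDE7B, called at 6 h and not at 18 h, and for 3 genes called at 18 h, so that their letters can be compared. They are RefSeq windows on GRCh38.p14 from 250 bases before to 50 after the start, on the gene's strand, with the letters of the full cyclic AMP response element TGACGTCA and of its core TGACG, read on both strands, in capitals. The full element is a palindrome that contains the core on both strands. Of 27305 genes with a window, 540 held the full element (1.98%) and 6828 the core. Windows were at hand for 95 of the 127 early genes, under the 80% needed, so the share among them was not used.

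PDE7B (chr6:135851451-135851750, plus strand): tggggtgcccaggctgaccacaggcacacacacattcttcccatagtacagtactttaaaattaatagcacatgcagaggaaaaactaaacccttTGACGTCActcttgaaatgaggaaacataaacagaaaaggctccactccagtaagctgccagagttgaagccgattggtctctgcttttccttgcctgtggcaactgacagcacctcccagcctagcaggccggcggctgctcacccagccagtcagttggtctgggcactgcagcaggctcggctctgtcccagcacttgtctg

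PDK4 (chr7:95596467-95596766, minus strand): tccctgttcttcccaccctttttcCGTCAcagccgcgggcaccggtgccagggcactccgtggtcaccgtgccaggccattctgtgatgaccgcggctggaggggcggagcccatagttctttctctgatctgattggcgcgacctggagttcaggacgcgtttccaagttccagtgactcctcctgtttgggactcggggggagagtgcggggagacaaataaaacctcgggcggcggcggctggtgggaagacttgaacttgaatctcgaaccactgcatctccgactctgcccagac

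SMOC1 (chr14:69879166-69879465, plus strand): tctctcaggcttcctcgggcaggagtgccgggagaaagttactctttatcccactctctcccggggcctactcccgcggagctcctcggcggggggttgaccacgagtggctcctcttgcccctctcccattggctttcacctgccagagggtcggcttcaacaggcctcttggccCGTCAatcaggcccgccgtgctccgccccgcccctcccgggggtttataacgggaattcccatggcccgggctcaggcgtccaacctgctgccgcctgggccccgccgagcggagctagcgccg

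TNFAIP2 (chr14:103123211-103123510, plus strand): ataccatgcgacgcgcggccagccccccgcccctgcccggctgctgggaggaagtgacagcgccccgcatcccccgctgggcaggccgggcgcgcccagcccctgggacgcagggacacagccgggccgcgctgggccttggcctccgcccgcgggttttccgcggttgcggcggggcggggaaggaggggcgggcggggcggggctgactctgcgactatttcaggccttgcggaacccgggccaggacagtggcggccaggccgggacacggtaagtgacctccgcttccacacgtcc

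PDE7B held the full element with its first base at -155 from the start. PDK4 and SMOC1 held the core alone, from -226 and from -74, and TNFAIP2 held neither in this window. The printed genes do not stand for their groups. Of other genes with a probe set called at 18 h and a window, IGFBP4, KRT4, TNS1, LYZL1 and DLG3-AS1 held neither. KLHL35 held the core alone. Of other genes called at 6 h and not at 18 h, CRISPLD2, PDE4D and STEAP4 held neither. LINC00473 and NR4A3 held the core alone, and DUSP1 held the full element. Only the first listed window of each gene was read, so letters at any other start of a gene were not looked at. A match is a description of these letters and not a binding site.

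Effector genes known for β2-agonists and phosphodiesterase 4 inhibitors in airway epithelium kept 1 call of 20 at 18 h, SLPI (all genes, 0.0506%). Earlier, 14 had risen at 2 h (3.21% of all genes) and 9 at 6 h (3.65%). CRISPLD2, a secreted protein with anti-inflammatory actions in airway cells, had 851.5, 327, 274 and 285 on the GS-5759 arrays, against 598, 176.5, 189 and 192.5 on the vehicle arrays. Replicate 1 was highest in both groups. The difference of 0.59 ± 0.16 did not pass (limma, adjusted p = 0.255), and the change from 6 h was -2.48 (adjusted p = 2.15e-08). CD200, a ligand that restrains myeloid cells, differed by 0.26, with a change of -0.97 from 6 h that was called (adjusted p = 0.000342). Further genes with a called decline from 6 h were CSGALNACT1, a chondroitin sulfate transferase (0.25 at 18 h, change -2.60), SLC7A2, a cationic amino acid transporter (0.21, -1.73), LPL, lipoprotein lipase (0.31, -1.74), and STEAP4, a metalloreductase (0.47, -1.45). For CSGALNACT1 the GS-5759 array of replicate 4 lay below its vehicle partner. Dimmer probe sets of LPL and STEAP4 differed by 2.0 and 1.53 at 6 h, and by 0.66 and 0.15 at 18 h. For SLC7A2, a dimmer probe set differed by 1.00 at 6 h and another by -0.02. A dimmer CSGALNACT1 probe set differed by -0.15 at 6 h and -0.02 at 18 h, and a dimmer CRISPLD2 probe set by -0.21 and -0.05.

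Cytokine genes raised early did not pass at 18 h. Of 23 inflammatory cytokines, chemokines and adhesion molecules, 0 were called at 18 h and 1 had an unadjusted p under 0.05 in limma (all genes, 8.24%). Earlier, 4 rose at 1 h, 5 at 2 h and 2 at 6 h, when 0.698%, 3.21% and 3.65% of all genes had risen. IL6 had 160, 92.4, 74.6 and 72.5 on the GS-5759 arrays, against 125.5, 103, 52.8 and 54.6 on the vehicle arrays. It was higher in 3 of 4 pairs, with a difference of 0.23 ± 0.34 (limma, adjusted p = 0.936), after 3.35 at 1 h. Without the vehicle array of replicate 3 the IL6 value was -0.07. The neutrophil chemoattractant CXCL2 differed by 0.36 and the transcriptional repressor PRDM1 by 0.27, after 2.29 and 2.73 at 1 h. A dimmer PRDM1 probe set, with 1.62 at 1 h, differed by -0.63 at 18 h (adjusted p = 0.235), the opposite sign. SGK1, a kinase known for ion channel control, differed by 0.10, after 2.50 at 2 h.

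Genes that had fallen early were not called at 18 h. TXNIP, a thioredoxin inhibitor that responds to glucose, had 6480, 7829, 5992 and 7165 on the GS-5759 arrays, against 6750, 7571, 6313 and 6866 on the vehicle arrays. Its difference was -0.01 at 18 h, against -1.49 at 2 h. EGR1, an immediate early transcription factor, differed by -0.18, against -1.41 at 2 h. NAV3, a microtubule-binding protein, had 384, 516.5, 131 and 408 on the GS-5759 arrays and 465, 642, 218 and 470 on the vehicle arrays. Its difference was -0.36 ± 0.14 (limma, adjusted p = 0.494) at 18 h and -1.43 at 6 h, and the change of 1.07 was called (adjusted p = 0.0013). LINC01085 behaved alike in its values, with -0.34 at 18 h, -0.96 at 6 h and a called change of 0.63 (adjusted p = 0.0221). GASK1B (-0.65) and FABP6 (-0.57) were lower in all 4 pairs at 18 h and not called, after called falls at 6 h (-0.97 and -0.85). A dimmer GASK1B probe set differed by -0.61 at 6 h and -0.54 at 18 h. For FABP6, a nearly as bright probe set differed by -0.10 at 6 h and -0.02 at 18 h. A dimmer FABP6 probe set differed by -0.03 and 0.25 at these times.

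Of 14 cholesterol synthesis genes, 7 had fallen at 6 h, against 2.51% of all genes. At 18 h they showed 0 calls and a median of -0.04, and 0 had an unadjusted p under 0.05 in limma (all genes, 8.24%). MVK, mevalonate kinase, differed by 0.05 at 18 h and -0.52 at 6 h, and the change of 0.57 was called (adjusted p = 0.000107). MVD, the decarboxylase of the same pathway, differed by 0.07 and -0.58 at these times, with a change of 0.65 (adjusted p = 0.0394). ARHGAP18, a GTPase-activating protein, went the same way, with 0.04 at 18 h, -0.56 at 6 h and a change of 0.61 (adjusted p = 0.0434).

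The interferon-stimulated genes were the list with the lowest median at 18 h. All 22 measured members had a fitted difference below 0, from -1.06 to -0.01, with a median of -0.38, while 44.1% of all genes lay below 0. No member was called, 7 had an unadjusted p under 0.05 in limma (all genes, 8.24%), and the spread between replicates was wide. The list's median difference was -0.28 in replicate 1, -0.87 in replicate 2, -0.18 in replicate 3 and 0.04 in replicate 4, so that 8 of 22 members were below vehicle in replicate 4 against all 22 in replicate 2. At 1 h, with no call in the list either, the 4 medians had run from -0.70 to 0.78. At 2 h, with 1 member called as risen, they were 0.12, 0.36, 0.04 and 0.14 in replicates 1 to 4. At 6 h, with no call, they were 0.09, -0.35, -0.38 and -0.16. All 4 pairs were lower at 6 h in 7 of the 22 members (31.8%, against 15.3% of all genes). The list's 18 h median was -0.40 without replicate 3, with 21 of 22 below 0, and -0.38 under both other scalings.

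Within that list the genes of the IFIT group were lower in every pair. IFIT2, an antiviral RNA-binding protein, had 412, 492, 239 and 211 on the GS-5759 arrays, against 589, 1108, 468 and 709.5 on the vehicle arrays. The lowest vehicle array lay below the highest GS-5759 array, and the difference was -1.06 ± 0.27 (limma, adjusted p = 0.233). IFIT1 had 1310, 1223, 752 and 798 on the GS-5759 arrays, against 1755, 2568, 1261 and 1328 on the vehicle arrays (-0.73, adjusted p = 0.235). IFIT3 differed by -0.73 (adjusted p = 0.232), RSAD2, the antiviral enzyme viperin, by -0.87 (0.351), OASL by -0.66 (0.32) and the RNA sensor RIGI by -0.51 (0.265). In 8 of the 22 genes all 4 pairs were lower (36.4%, against 8.78% of all genes). MX1, OAS1, OAS2 and MX2 were higher with GS-5759 in replicate 4 and lower in the other 3 pairs.

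**Figure D4:**
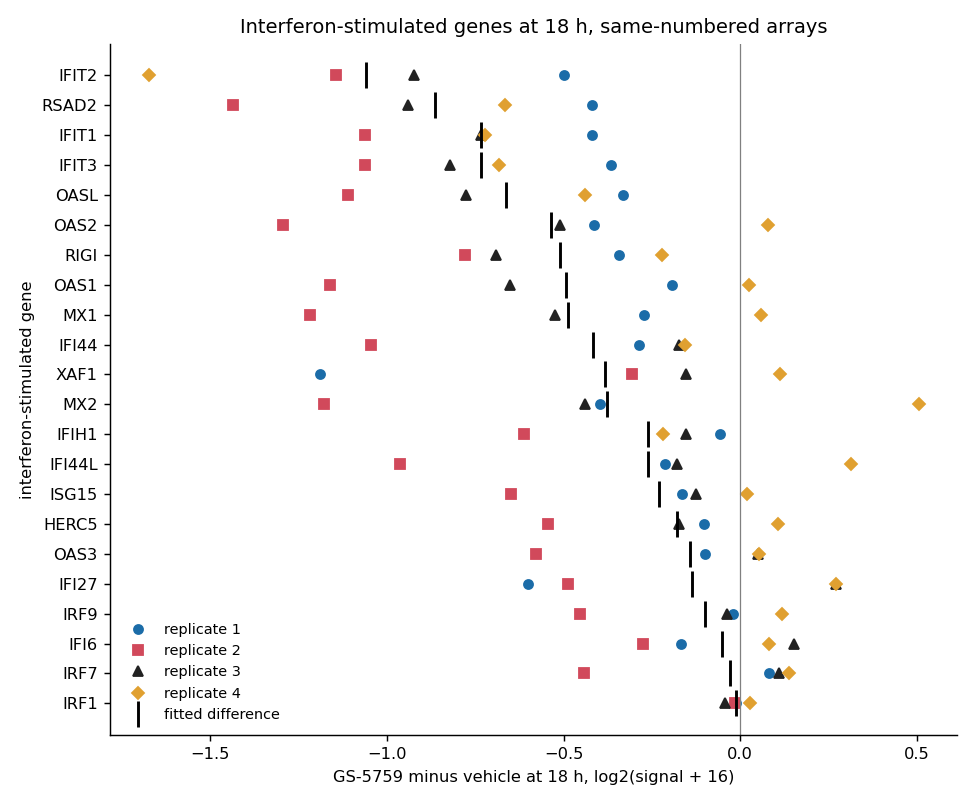
GS-5759 minus vehicle at 18 h on the log2(signal + 16) scale (x axis) for each of 22 interferon-stimulated genes (y axis, ordered by fitted difference), with 1 point for each same-numbered pair of arrays and a bar for the fitted difference. Every bar lies below 0, replicate 2 is lowest for most genes, and replicate 4 lies above 0 for 14 of them.

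Across the 32 lists, 30 held no call at 18 h, while 24 of the 32 had held at least 1 at 6 h. Over all genes, 0.0506% rose and 0.0101% fell at 18 h, against 3.65% and 2.51% at 6 h. The exceptions were SLPI among the effector genes and KRT4 among the basal and squamous markers. The 11 reference genes had a median of -0.04 and no call, and 1 had an unadjusted p under 0.05 in limma (all genes, 8.24%). Of 25 genes of G2/M and mitosis, 22 were above 0 (all genes, 55.9%) with a median of 0.04. None of them was called and none had an unadjusted p under 0.05, after 4 falls at 2 h and 3 at 6 h (all genes, 2.2% and 2.51%).

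GS-5759 and Ind/GSK were not told apart by any probe set at 18 h. The direct difference was called for 0 of 41091 probe sets, with 1175 (2.86%) at an unadjusted p under 0.05 in limma, and the typical 95% interval of a gene above the signal of 100.8 spanned 0.16 either side of its value. Against the same 4 vehicle arrays, GS-5759 had 10 risen and 2 fallen genes, and Ind/GSK had 63 risen (0.319%) and 106 fallen (0.536%). Those comparisons share their vehicle arrays, and a difference in their counts was not tested. For FIBIN the difference from vehicle was 2.65 with GS-5759 and 2.51 with Ind/GSK, and the direct difference was 0.15 (-0.26 to 0.56). TNFAIP2 gave 1.19 and 1.08, SLPI 1.37 and 1.25, B3GALT4 1.68 and 1.71, and KRT4 -0.97 and -1.05 in the same order. For SMOC1 GS-5759 gave 0.89 and Ind/GSK 1.39, with a direct difference of -0.50 (-0.79 to -0.20). For PDK4 they gave 0.73 and 1.23, with a direct difference of -0.50 (-0.79 to -0.21). Neither direct difference passed adjustment (adjusted p = 1 for each, limma), and a p that misses the threshold does not show that both treatments act alike. The interferon-stimulated list had medians by replicate number of -0.28, -0.87, -0.18 and 0.04 with GS-5759 and of -0.30, -0.71, -0.46 and -0.16 with Ind/GSK. With GS-5759 0 of its 22 members were called, and with Ind/GSK 3 fell: IFIT2 (-1.09, adjusted p = 0.0449), IFIT3 (-0.74, adjusted p = 0.049) and RIGI (-0.55, adjusted p = 0.0464; limma). A difference between these counts was not tested.

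**Figure D5:**
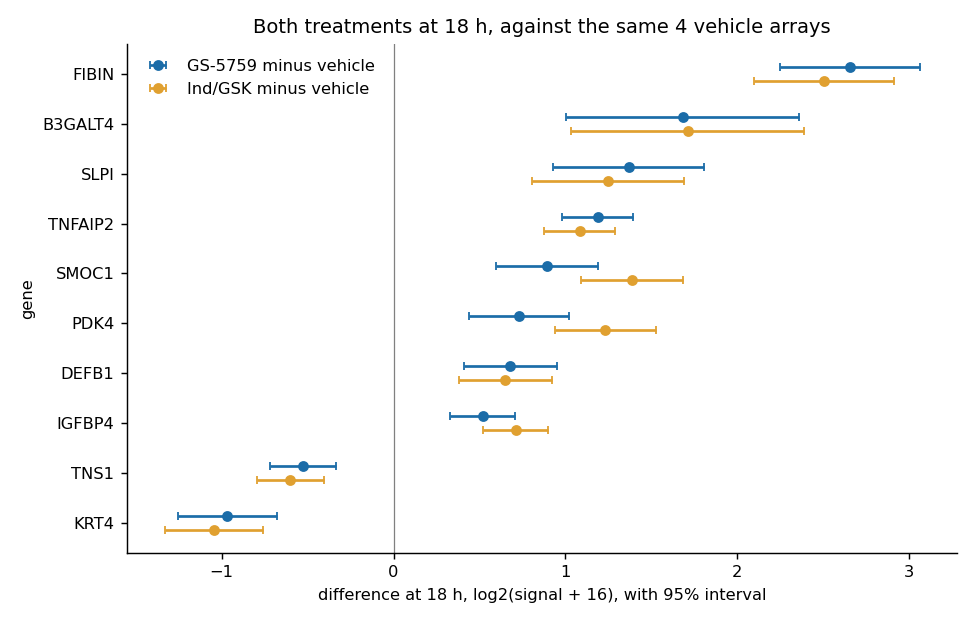
Difference from vehicle at 18 h on the log2(signal + 16) scale (x axis) with its 95% interval for 10 genes called at 18 h (y axis), GS-5759 above Ind/GSK, both against the same 4 vehicle arrays. The intervals overlap for every gene, which is not a test of the difference between treatments. SMOC1 and PDK4 have the higher Ind/GSK values, 1.39 and 1.23 against 0.89 and 0.73. Their direct differences had 95% intervals of -0.79 to -0.20 and of -0.79 to -0.21, and neither passed adjustment.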

How the data were processed

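Total RNA of BEAS-2B cells had been labelled with biotin through 3' in vitro transcription, per the labels' protocols, and hybridised to 1 Affymetrix array per sample. Per the submitters' processing notes, the authors used PLIER within the Affymetrix Expression Console, and what they deposited are linear intensities, 1 a probe set. Versions and any normalization between arrays are not given in the sources used here. Array medians on the log2(value + 16) scale ran from 6.999 to 7.173, no value was 0 and no 2 columns were identical, so arrays were used as deposited. For arrays, their number limits the precision.

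Of 54675 probe sets, 62 were controls, 11721 had no symbol, 1801 had several and 41091 had exactly 1. GEO's platform annotation gave the symbols, and 41037 were matched to current ones by gene identifier. Log2(value + 16) was fitted with limma 3.58.1 in R 4.3.3 (lmFit, eBayes without trend) over 48 arrays in 12 groups with the replicate number as an additive block (33 residual degrees of freedom), and p-values were adjusted by Benjamini-Hochberg over all 41091. The numbers come from the sample titles. Over probe sets above the 40th percentile of mean signal, same-numbered GS-5759 and vehicle arrays of 18 h had deviations correlated at 0.7196 to 0.9074, each of the 4 best with its own number, against -0.8035 to 0.6655 for other numbers.

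Named were genes whose brightest probe set had a mean above the 40th percentile (log2 6.868): the called genes with the same sign in all 4 pairs, filled to 10 a direction by unadjusted p; up to 4 called members a list; the 10 largest rises at 1, 2 and 6 h and 5 largest falls at 2 and 6 h; the 5 largest called changes a direction between 6 and 18 h; and 12 genes always given, mostly of the cyclic AMP pathway, of which 1 is not reported here. The comparison, its lists and this rule were chosen with earlier results of these data known. Of 582 list members, 530 were measured.

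On simulated data for this comparison over 41091 probe sets, 71.6% of changes of 0.5, all 67 of 1 and all 66 of 2 on the log2 scale were called, with 14 false calls. The simulation used a normal spread and planted many more changes than were called in the comparison itself. More true changes ease the Benjamini-Hochberg threshold, so these rates may be too high for the comparison. Alternatives were the block left out or set within each time, fewer arrays, other pseudocounts, filters on dim probe sets, other scalings, eBayes with trend or robust, and leaving out each array or replicate number.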

Additional observations from a re-analysis of the deposited data

Results flagged for a closer look

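Among 108 groups of 4 arrays checked, 8 held an array whose gap to its nearest neighbour took up an unusually large share of the group's range, where chance gives about 1 in 20, or 5.4. Replicate 3 supplied 3 of the 8. With GS-5759 at 18 h, CRISPLD2 was high in replicate 1 (gap 0.847 of the range), SLC7A2 was high in replicate 1 (0.976) and PDE4B was high in replicate 3 (0.83). With vehicle at 18 h, IGFBP4 was low in replicate 4 (0.936), KRT4 was low in replicate 3 (0.906), NID2 was low in replicate 4 (0.873), TMEM158 was high in replicate 3 (0.871) and CRISPLD2 was high in replicate 1 (0.931).

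The difference between GS-5759 and vehicle itself changed between times for 346 probe sets from 6 to 18 h, for 757 from 2 to 18 h and for 104 from 1 to 18 h (limma with Benjamini-Hochberg adjustment). Of 54 named genes, 17 passed that test from 6 to 18 h. It came down for CSGALNACT1 (-2.60, adjusted p = 1.56e-06), CRISPLD2 (-2.48, 2.15e-08), LPL (-1.74, 9.49e-06), SLC7A2 (-1.73, 2.35e-08), LINC00473 (-1.64, 0.000155), PDK4 (-1.62, 6.01e-06), PDE7B (-1.49, 0.00297), STEAP4 (-1.45, 0.00194), SMOC1 (-1.41, 6.33e-05), PDE4D (-1.26, 0.00737), CD200 (-0.97, 0.000342) and BRWD1 (-0.63, 9.98e-06). It went up, towards or past 0, for NAV3 (1.07, adjusted p = 0.0013), MVD (0.65, 0.0394), LINC01085 (0.63, 0.0221), ARHGAP18 (0.61, 0.0434) and MVK (0.57, 0.000107). The early differences of most of these genes also led to their being named.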

How the results depend on the processing

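The count of 14 probe sets called at 18 h was 1 without the replicate block, 44 with the block set within each time, 8 from the 12 arrays of 18 h and 0 from the 8 arrays of the comparison. It was 26 with the brightest probe set of each gene above the 40th percentile, 34 after centring on the 75th percentile and 31 after quantile normalization. Leaving out 1 array or 1 replicate number gave 6 to 29. The lowest counts came without replicate 1 or replicate 2 (6 each) and without the GS-5759 array of replicate 2 or the vehicle array of replicate 3 (7 each), and the highest without the vehicle array of replicate 4 (29). Without the GS-5759 array of replicate 4 or the vehicle array of replicate 2 it was 9. Other pseudocounts, the filter on dim probe sets alone and the other eBayes options gave 12 to 21. The 346 probe sets whose difference changed from 6 to 18 h were 22 without the block, 715 with the block within each time, 537 after centring, 583 after quantile normalization and 108 to 345 with an array or number left out. From 2 to 18 h the 757 became 113 without the block, 468 with the brightest probe sets and 284 to 724 with arrays left out. From 1 to 18 h the 104 became 20 without the block, 184 with it within each time and 46 to 104 with arrays left out. The lowest counts for these changes came without replicate 1. The median at 18 h of the 127 early risen genes, 0.10, ran from 0.079 without the vehicle array of replicate 3 to 0.149 without that of replicate 2. No called value reversed its sign in any setting run, and no probe set separated GS-5759 from Ind/GSK in any. The causes of these shifts were not tested. Arrays of 4 a group limit what is seen: changes of 0.5 on the log2 scale were called in 71.6% of simulated cases. That share may be too high for this comparison, because the simulation planted many more changes than were called in it.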

Other observations

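Other gene groups that GS-5759 had raised early held no call at 18 h in limma. Of all genes, 3.21% rose at 2 h, 3.65% rose at 6 h, and 8.24% had an unadjusted p under 0.05 at 18 h. Of 17 glucocorticoid-inducible genes, 10 rose at 2 h and 8 at 6 h, and 3 had an unadjusted p under 0.05 at 18 h. These were CRISPLD2, the transcription factor CEBPD (0.16, adjusted p = 0.646) and ANGPTL4, an inhibitor of lipoprotein lipase (0.38, adjusted p = 0.387). Of 18 amino acid and iron transport genes, 8 rose at 2 h and 8 at 6 h, and 3 had an unadjusted p under 0.05 at 18 h, among them the metalloreductase STEAP1 (0.37, adjusted p = 0.235) and the transferrin receptor TFRC (-0.26, adjusted p = 0.487). Of 20 immediate early genes, 9 rose at 2 h and 4 at 6 h, and 0 had an unadjusted p under 0.05 at 18 h. Of 18 MAP kinase feedback inhibitors, 8 rose at 2 h and 2 at 6 h, and 1 had an unadjusted p under 0.05 at 18 h.

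Among 27 TGF-β response and matrix genes, 7 had risen at 6 h (all genes, 3.65%). At 18 h 4 had an unadjusted p under 0.05 in limma (all genes, 8.24%), none called. The matrix glycoprotein tenascin C, TNC, differed by 0.74 ± 0.21 (limma, adjusted p = 0.314), beside 0.88 at 6 h, on a probe set below the 40th percentile of mean signal. The matricellular gene POSTN differed by 0.35 (adjusted p = 0.351) and TGFBI by 0.17 (adjusted p = 0.637), both higher in all 4 pairs, and SPARC by -0.12 (adjusted p = 0.403), lower in all 4. TFPI2, a protease inhibitor of the coagulation list, differed by 0.30 (adjusted p = 0.355), beside 0.71 at 6 h. These genes were picked out by their unadjusted p after their values were seen.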
